A study of Mus musculus with 6 samples.

Results

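The accessible sites of mouse chromosome 1 were compared with those of chromosomes 2 to 19 in cells with and without HAT1. All sites placed on chromosome 1 were taken, 16381 of the 225604 autosomal sites and of 229903 sites in all. The chromosome was chosen because earlier work on these values had found both lowered and raised sites in excess on it, so the difference between the genotypes is given for it as a description, without a test. The cells were pMEFs, primary fibroblasts of the mouse taken straight into culture from embryos of the C57bl6 background. Their open chromatin was measured by ATAC-Seq, in which a transposase cuts accessible DNA and tags the cut ends for sequencing. The HAT1 WT group, written HAT1+/+ below, and the HAT1 KO group, written HAT1-/-, held 3 samples each from embryos of that genotype. Both groups were grown in the same serum-containing medium, and the labels name no treatment and no further allele for either. Since the embryos themselves had the genotype, effects of HAT1 before the cells were taken cannot be told apart from effects in culture. The age of the embryos is not given in the labels.

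HAT1 is a histone acetyltransferase that acetylates newly made histone H4 before it is laid down behind the replication fork. Long, gene-poor and AT-rich stretches of the genome are generally packed as heterochromatin, often against the nuclear lamina, while gene-rich stretches hold most of the accessible promoters and enhancers. Mouse chromosome 1 is the longest mouse chromosome and holds both kinds in alternation.

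For each site the authors deposited the log2 of the mean normalized read count over the 3 lines of each genotype. The values for single lines were not used here. The spread between lines is therefore unknown, no site was tested, and a single outlying line cannot be told apart from a change in all 3. The SDs below are over sites or bins, which share the same 6 libraries and are not replicates. In a bulk sample, fewer cells with an open site and less opening per cell cannot be told apart. The difference is the HAT1-/- value minus the HAT1+/+ value, so 1 log2 is a 2-fold change. Of 9 fibroblast genes used to check the cell type, 9 had a site at their start, with a median of 131 normalized reads in HAT1+/+. The fibroblast median was 111 reads in HAT1-/-, and 5 of the 9 were higher there. Of 9 genes of blood, endothelial, epithelial and neuronal cells, 9 also had a site, with medians of 11.8 reads in HAT1+/+ and 17.5 in HAT1-/-. Of these, 7 were higher in HAT1-/-, with the largest differences in the endothelial gene Cdh5 (0.89 log2) and the blood gene Ptprc (0.65), and 2 neuronal genes were lower. Summed over genes, the fibroblast sites went from 1551 to 1538 reads and the others from 218 to 230.4. The part of these differences in the results below was not tested. The ranges in HAT1+/+ overlapped, since the macrophage gene Cd68 stood at 73.0 reads and the neuronal gene Snap25 at 41.4, above the fibroblast gene Pdgfra at 29.2. Hat1 itself lies on chromosome 2. The site at its start stood at 7.69 log2 in HAT1+/+ and 7.90 in HAT1-/-, and a site in the gene body at chr2:71421184-71421348 fell from 4.46 to 1.77. Accessibility of Hat1 does not measure its protein, and this is no check of the knockout.

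The sites with the largest differences on chromosome 1 give a view of what the comparison rests on. Among sites with a mean of at least 16 normalized reads over both genotypes, the 3 that fell most and 2 of the 3 that rose most are shown by the central 200 bases of each site in GRCm38.p6, the assembly equal to mm10, as held by RefSeq. Capitals mark TGANTCA, where N is any base. AP-1 factors, abundant activators in cultured fibroblasts, recognise the core with C or G at N. The match in lowered site C has A there. The motif reads the same on both strands.
Lowered site A, chr1:122100637-122100836, + strand: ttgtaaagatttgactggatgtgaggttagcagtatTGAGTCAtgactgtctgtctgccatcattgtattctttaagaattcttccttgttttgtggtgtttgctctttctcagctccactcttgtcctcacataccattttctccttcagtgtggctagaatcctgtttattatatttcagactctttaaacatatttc
Lowered site B, chr1:124299238-124299437, + strand: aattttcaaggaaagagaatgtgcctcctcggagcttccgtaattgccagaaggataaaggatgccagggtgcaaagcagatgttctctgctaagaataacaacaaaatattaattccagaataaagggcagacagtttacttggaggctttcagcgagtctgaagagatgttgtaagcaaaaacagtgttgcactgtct
Lowered site C, chr1:121960360-121960559, + strand: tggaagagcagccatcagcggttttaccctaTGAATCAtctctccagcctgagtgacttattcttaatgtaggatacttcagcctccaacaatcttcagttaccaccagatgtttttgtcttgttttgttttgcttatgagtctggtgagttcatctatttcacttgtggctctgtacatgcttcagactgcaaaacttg
Raised site A, chr1:43412053-43412252, + strand: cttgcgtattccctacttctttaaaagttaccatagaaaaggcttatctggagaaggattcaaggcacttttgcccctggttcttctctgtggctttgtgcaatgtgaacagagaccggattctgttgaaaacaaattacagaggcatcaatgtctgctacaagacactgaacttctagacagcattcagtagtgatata
Raised site B, chr1:160113089-160113288, + strand: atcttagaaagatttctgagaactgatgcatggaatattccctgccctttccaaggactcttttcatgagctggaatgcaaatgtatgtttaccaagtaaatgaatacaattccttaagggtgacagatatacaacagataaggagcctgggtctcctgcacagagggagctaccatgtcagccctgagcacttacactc

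The first lowered site, chr1:122100518-122100955, stood at 5.39 log2 in HAT1+/+ and 1.32 in HAT1-/-, a difference of -4.07, or 41.9 against 2.50 normalized reads. The second, chr1:124299061-124299613, fell from 5.64 to 1.82. The third, chr1:121960241-121960678, fell from 6.30 to 2.54. All 3 are intergenic and lie in 1 stretch of lowered sites around Dpp10, which encodes a subunit of neuronal potassium channels. The nearest coding gene starts are 532747, 253778 and 392470 bases away, and 2 of the 3 windows hold TGANTCA. The raised sites moved less. The first, chr1:43411988-43412317, rose from 3.21 to 4.69, a difference of 1.48 or 9.25 against 25.8 reads, and lies 2568 bases from the start of the processed pseudogene Gm29041. The second, chr1:160112986-160113390, rose from 3.35 to 4.80 and lies in an intron of Tnn, which encodes the matrix protein tenascin-N. Neither of these raised windows holds TGANTCA, and they lie 117 Mb apart, whereas the outer 2 of the lowered sites lie 2.34 Mb apart. Without the minimum of 16 reads, the lowest site of the chromosome was chr1:122102399-122102636, close to the first lowered site, which fell from 4.86 to -0.14 log2, or from 29.0 reads to 0.908. The highest was chr1:81166032-81166117, only 86 bases wide, in an intron of Nyap2, which rose from 0.655 reads to 6.32 reads. This last site stood at the lowest value that the HAT1+/+ column holds.

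The typical site on chromosome 1 differed little between genotypes and was like the typical site elsewhere. The median difference was -0.05 log2 on chromosome 1 and ranged from -0.09 on chromosome 7 to -0.04 on chromosome 15 over the other 18 autosomes. The share of sites below 0 was 54.3%, rank 12 of 19. The sums of normalized reads over all sites of chromosome 1 were 522722 in HAT1+/+ and 496146 in HAT1-/-, so that 94.9% of the reads were kept, against 94.7% on chromosomes 2 to 19. What set the chromosome apart was the tails. The SD over its sites was 0.62 log2, the highest of 19, against 0.60 on chromosome 14 and 0.52 on chromosome 11 as the highest and the lowest of the others. The middle 50% of sites spanned 0.65, against 0.58 to 0.66 elsewhere, and the middle 90% spanned 1.94, against 1.68 to 1.93. The skewness was -0.72, the most negative of all autosomes, and the next was -0.53 on chromosome 14.

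Lowered sites were more frequent on chromosome 1 than on any other autosome. At a fall of at least 1 log2 there were 1019 such sites, 6.22% of those on the chromosome, and the share over all autosomal sites was 5.12%. Chromosome 3 came next at 6.0%, chromosome 14 followed at 5.98%, and chromosome 11 was lowest at 3.44%. The share on chromosome 1 was 1.24 times that on chromosomes 2 to 19, with a 95% interval from 1.16 to 1.32 that covers counting error only and treats neighbouring sites as independent. Raised sites were less exceptional. At a rise of at least 1 log2 there were 515 sites, 3.14%, where the share over all autosomal sites was 2.78%, rank 3 of 19, behind chromosome 14 at 3.37% and chromosome 12 at 3.17%. The ratio to chromosomes 2 to 19 was 1.14, with an interval from 1.05 to 1.25. At the share of the other chromosomes, 824 lowered and 450 raised sites would stand here, so the excess amounts to 195 lowered and 64.7 raised sites. Just inside the limit, 95 sites fell by 1.0 to 1.05 log2, with medians of 12.8 reads in HAT1+/+ and 6.36 in HAT1-/-, and just outside it 115 sites fell by 0.95 to 0.99, with medians of 14.5 and 7.31. Just inside the limit for a rise stood 83 sites, with medians of 5.50 and 11.1 reads, and just outside it 55 sites, with medians of 5.50 and 10.8.

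**Figure D1:**
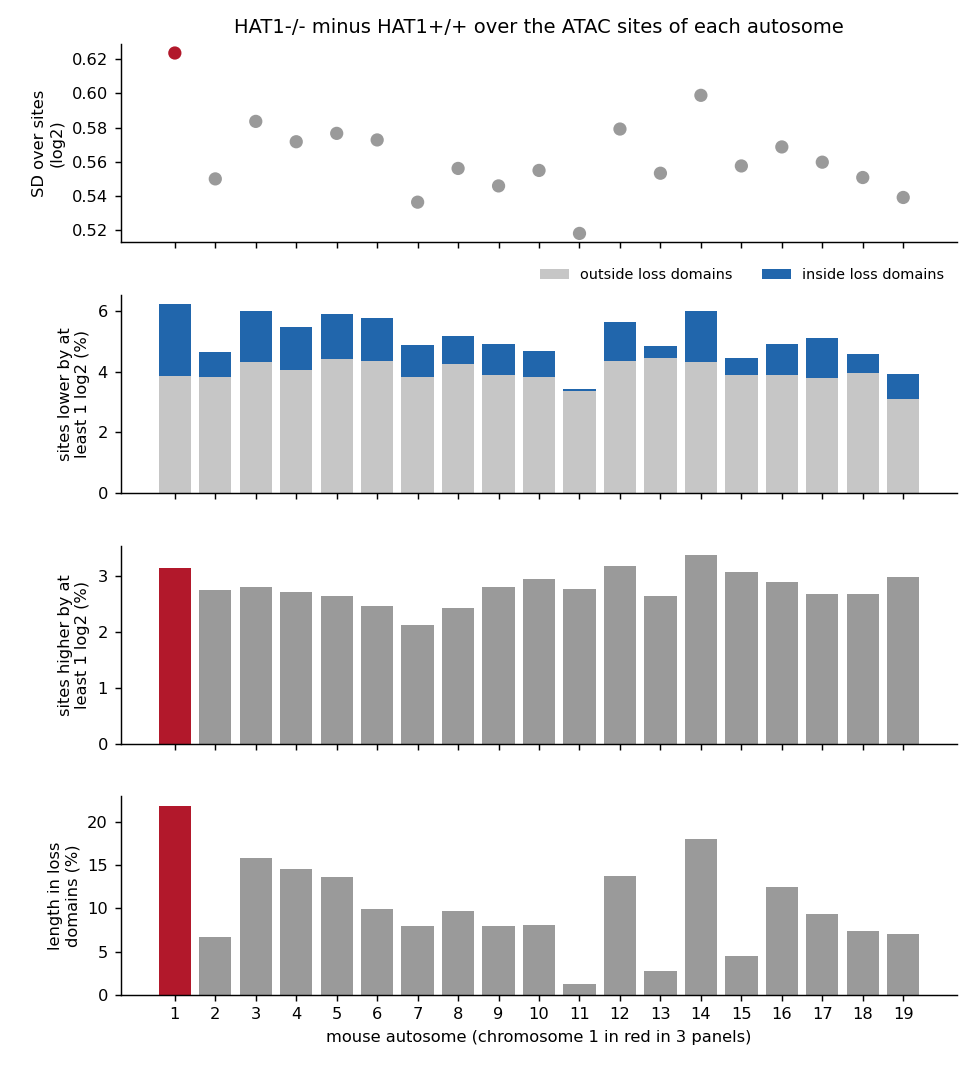
Each autosome by the SD of the difference over its sites (log2), the shares of its sites lower or higher by at least 1 log2 (percent of all its sites, with lowered sites divided by whether they lie in loss domains), and the percent of its length in loss domains. Chromosome 1 is first in the SD (0.62), in lowered sites (6.22%) and in domain length (21.9%), and rank 3 in raised sites (3.14%).

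The larger the difference asked for, the more chromosome 1 stood out. Each ratio below is the share on chromosome 1 divided by that on chromosomes 2 to 19, and the share over all autosomes, which includes chromosome 1, is given as the background. The intervals cover counting error only and treat neighbouring sites as independent. They take no account of the chromosome having been chosen for its excess, so they are no test of it. At 0.58 log2 the ratio of lowered shares was 1.05, rank 5 of 19, with 15.8% on chromosome 1 and 15.0% on the others (background 15.1%). At 1.5 log2 there were 391 lowered sites, 2.39% against 1.46% (background 1.53%), a ratio of 1.63. At 2 log2 there were 192, 1.17% against 0.467% (background 0.519%), a ratio of 2.51 with an interval from 2.15 to 2.93. Chromosome 1, with 7.26% of the autosomal sites, thus held 16.4% of the sites that fell by at least 2 log2, and chromosome 14 came next at 0.834% of its sites. At 2.5 log2 the count was 87, or 0.531% against 0.154% (background 0.182%), and the ratio was 3.44. Raised sites followed a similar course at smaller counts. The ratio was 1.08 at 0.58 log2, where 10.8% of the chromosome's sites and 10.0% of the others rose (background 10.1%). It was 1.30 at 1.5 log2, with 120 sites or 0.733% against 0.565% (background 0.578%). At 2 log2 it was 1.93, with 36 sites or 0.220% against 0.114% (background 0.121%), and chromosome 13 came next at 0.178%. At 2.5 log2 only 10 raised sites were left, 0.0610% against 0.0196% (background 0.023%), and the interval of the ratio of 3.12 ran from 1.56 to 6.22.

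**Figure D2:**
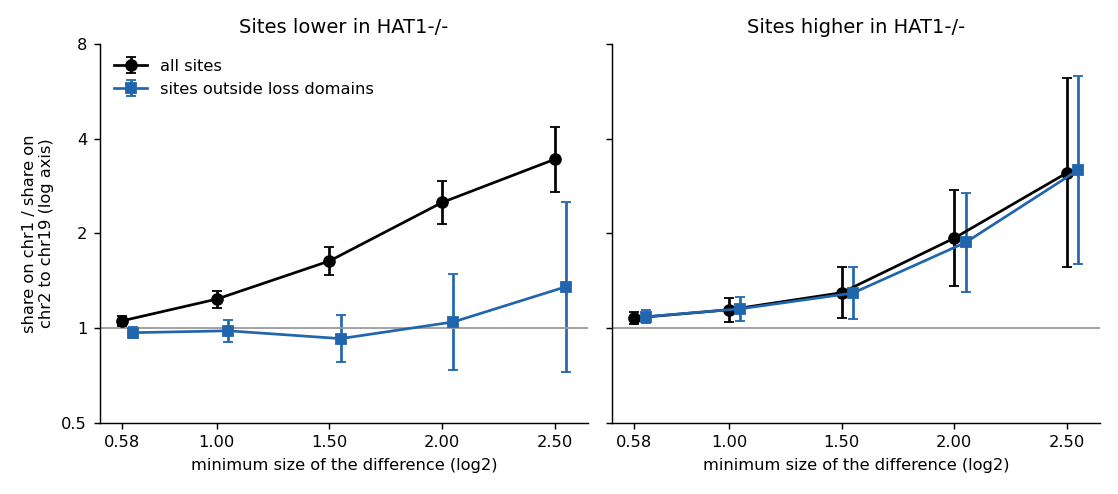
Share of sites past a minimum difference on chromosome 1 divided by the share on chromosomes 2 to 19 (log axis), against that minimum (log2), for all sites and for sites outside loss domains. Bars are 95% counting intervals that treat sites as independent and ignore that the chromosome was chosen for its excess. For lowered sites the ratio climbs from 1.05 to 3.44 over all sites and stays between 0.93 and 1.35 outside domains, whereas for raised sites both series run together from about 1.08 to above 3.1.

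Bins with a low mean difference were few. Of the 40 bins of 5 Mb on chromosome 1, 25 had a mean difference within 0.1 log2 of 0, and 5 lay under -0.58. These 5 bins held 385 of the 16381 sites and 177 of the 1019 that fell by at least 1 log2. Most lowered sites thus lay elsewhere. Lowered sites made up a far larger share of the sites in these bins, which were picked on their low means. Over the 460 bins of the other autosomes 8 lay under -0.58, and no other chromosome had more than 2 of them. The SD of the bin means was 0.39 log2 on chromosome 1, against 0.34 on chromosome 14, a median of 0.12 over the other 18 and 0.05 on chromosome 11. Without the 5 low bins of chromosome 1 it was 0.11, a fall that follows from picking them by value. That value cannot be set against the other SDs, which keep their low bins. The lowest bin of the chromosome, chr1:100000001-105000000, had 50 sites with a mean of -1.62 (SD 1.11 over sites), and 35 of them fell by at least 1 log2. It was also the lowest of all 500 autosomal bins. The second, chr1:110000001-115000000, had 54 sites with a mean of -1.51 (SD 1.23), and 34 fell. The third, chr1:25000001-30000000, had 46 sites with a mean of -1.19 (SD 0.98), and 27 fell. The bins chr1:140000001-145000000 and chr1:145000001-150000000 were the other low ones, at -0.73 over 153 sites and -0.65 over 82 sites. At the other end no bin rose far. The highest was chr1:45000001-50000000, at 0.05 over 196 sites, followed by chr1:180000001-185000000 at 0.01 and chr1:80000001-85000000 at 0.0045. The bin medians told the same order at the low end, with -1.91, -1.86 and -1.37 in the 3 lowest bins. Among sites of at least 16 reads, the one furthest down in the lowest bin was chr1:100104354-100104818, in an intron of Cntnap5b, at 5.57 log2 in HAT1+/+ and 1.91 in HAT1-/-. In the second it was chr1:113288244-113288766, 835 bases from the start of the long noncoding RNA gene Gm28189, at 5.97 and 2.24. In the third it was the intergenic site chr1:28328538-28329283, at 5.87 and 3.02. The sites furthest up in the 3 highest bins moved less. They were the intergenic sites chr1:47545602-47546044, at 4.04 and 4.86, and chr1:181316598-181317114, at 3.95 and 5.25. In the last bin it was chr1:80757402-80757785, 934 bases from the start of Dock10, which encodes a nucleotide exchange factor, at 3.86 and 4.76.

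**Figure D3:**
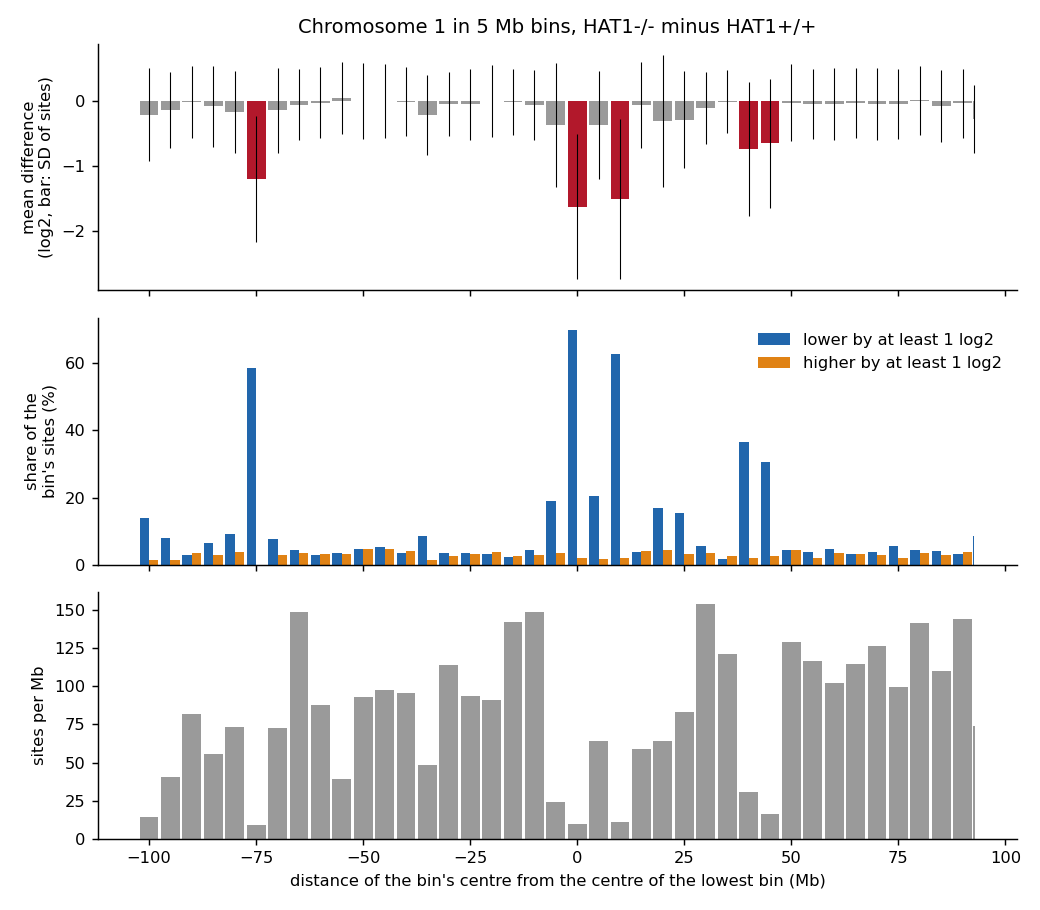
Chromosome 1 in 5 Mb bins by distance from the lowest bin (Mb), showing the mean difference with the SD over the bin's sites (log2, bins under -0.58 in red), the shares of sites lower and higher by at least 1 log2 (percent), and the number of sites per Mb. The 5 red bins have at most 30.6 sites per Mb and 30.5% to 70.0% lowered sites, and raised sites stay at or under 4.74% in every bin.

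A single stretch of 11 bins, chr1:95000001-150000000, was singled out after its values were seen. It makes up 28.1% of the length and holds 19.5% of the sites, but 41.2% of the sites that fell by at least 1 log2 and 144 of the 192, or 75%, that fell by at least 2. Its share of raised sites, 18.8%, was close to its share of all sites. In the rest of the chromosome 4.54% of sites were lowered by at least 1 log2. Raised sites were found in 38 of the 40 bins and made up between 0% and 4.74% of a bin. Lowered sites were found in every bin, but their share varied more, from 1.65% to 70.0% of a bin.

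**Figure D4:**
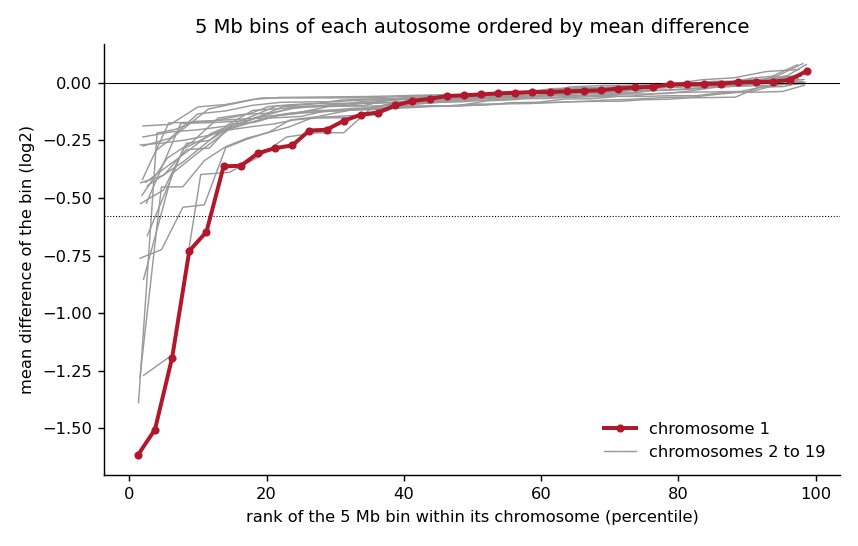
Mean difference of 5 Mb bins (log2), ordered from low to high within each autosome and placed by percentile, with chromosome 1 in red, the other 18 in grey and a dotted line at -0.58. Chromosome 1 has the lowest bin and 5 bins under the dotted line, against at most 2 on any other chromosome. Chromosomes 2, 3 and 14 also reach -1.39, -1.28 and -1.27. The highest bins of chromosome 1 lie within the range of the other chromosomes.

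Low bins were thinly filled. The 5 low bins held at most 30.6 sites per Mb, whereas the bins within 0.1 of 0 held a median of 110 sites per Mb. Across the 40 bins the mean difference went with the number of sites (Spearman 0.61), with the GC content (0.52) and with the number of gene starts (0.63). These are descriptions over bins of 1 chromosome that share the same libraries. The same correlation with site number ranged from 0.03 on chromosome 19 to 0.76 on chromosome 14. When sites were split into 5 classes by the number of other sites within 500 kb, the class with 0 to 90 neighbours held 23.4% of chromosome 1 sites. In it 15.6% of chromosome 1 sites were lowered by at least 1 log2 against 11.1% on the other autosomes, and the SD was 0.83 against 0.69. In the class with 91 to 120 neighbours the shares were 4.10% and 4.26%, and in the densest class, with 177 to 312 neighbours, 2.24% and 2.93%. Raised shares in the sparsest class were 3.18% and 2.84%.

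Loss domains were called from the difference as runs of consecutive sites whose 25-site moving mean was under -0.58. A run ended at any site whose moving mean was not under -0.58, or at a gap of over 1 Mb between sites, so some neighbouring domains lie only kilobases apart. Over all autosomes 2.26% of sites lay in such domains, and on chromosome 1 there were 681 such sites, or 4.16%. Since the domains are picked on the difference, their low values are a description. Chromosome 1 had 22 of them with 42.8 Mb in all, 21.9% of its length, the highest of 19. Some of the 22 were single sites, kept because the moving mean was low. Such a site could itself fall or rise. The site chr1:143962266-143962589 fell by 1.51 log2 and chr1:140464129-140464323 rose by 2.16. Chromosome 14 came next at 18.1% and chromosome 11 was lowest at 1.2%. With 7.94% of autosomal length, chromosome 1 carried 16.2% of the autosomal length in domains. It had 10 domains of at least 1 Mb over its 195 Mb. Chromosomes 3 and 5, of 160 and 152 Mb, had 9 each, so per Mb chromosome 1 was not first. The median length of its 10 was 3.37 Mb, against 1.85 Mb for the 83 of that size elsewhere. Sites within domains were also lowered further than elsewhere, with a mean of -1.19 against -0.99 on chromosomes 2 to 19, and 57.1% against 48.6% of them fell by at least 1 log2. When runs up to 1 Mb apart were merged across the sites between them, chromosome 1 had 11 domains covering 22.8% of its length, still rank 1. It then had 8 domains of at least 1 Mb, as did chromosome 5, and the mean of its domain sites, -0.99, was no longer the lowest, since chromosome 6 stood at -1.09.

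The 10 long domains differed in depth. The longest, chr1:106932582-118288754, had 137 sites with a mean of -1.41 (SD 1.08 over sites), and its median site went from 14.1 reads to 5.50. The lowest mean belonged to chr1:121577617-125262548, -1.50 (SD 1.35) over 72 sites, where the median went from 11.4 to 4.59 reads and the summed reads fell to 33.3% of HAT1+/+. The domain chr1:98178720-105179876 had a mean of -1.46 (SD 1.14) over 76 sites and medians of 15.4 and 5.41 reads. These 3 stood lowest, and all lie in the middle of the chromosome. Further along, chr1:129020581-130508857 was short but dense, with 55 sites at a mean of -1.25 (SD 1.05). The domain chr1:140531940-143593562 had 31 sites at -1.21 and no coding gene start. The domain chr1:144003464-148760120 had 90 sites at -1.08 and the highest HAT1+/+ median, 22.2 reads, against 8.28 in HAT1-/-. On the first part of the chromosome, chr1:25185865-30720948 had 61 sites at -1.16 and chr1:31156931-33245530 had 27 sites at -1.0. The shallowest were chr1:94035818-95364747, 25 sites at -0.90 that kept 85.5% of their summed reads, and chr1:67397080-68780965, 28 sites at -0.81 that kept 59.6%. In each of the 10 the median site was lower in HAT1-/-, while the middle 50% of sites overlapped between genotypes in 8 of them.

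**Figure D5:**
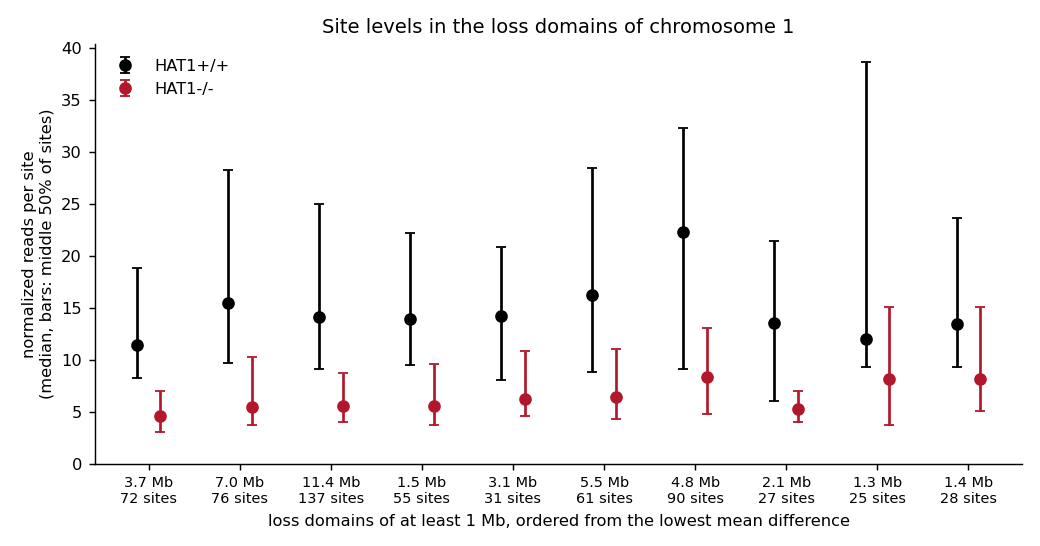
Normalized reads per site in the 10 loss domains of at least 1 Mb on chromosome 1, ordered from the lowest mean difference, as the median over sites with bars for the middle 50% of sites, in HAT1+/+ (black) and HAT1-/- (red). HAT1+/+ medians run from 11.4 to 22.2 reads and HAT1-/- medians from 4.59 to 8.28.

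Lowered sites outside the domains were as frequent as on other chromosomes. Of the sites outside, 4.01% fell by at least 1 log2 on chromosome 1 and 4.09% on chromosomes 2 to 19, a ratio of 0.98 with an interval from 0.91 to 1.06 and rank 10 of 19. Leaving out the domains removes lowered sites on every chromosome by construction. Of the 1019 lowered sites, 389 or 38.2% lay in domains, against 20.4% of those on the other autosomes. At 2 log2, 158 of the 192 lay in domains. Of the raised sites, 504 of 515 lay outside domains, as did 15700 of all 16381 sites of the chromosome. Few raised sites inside follow from picking domains on low values. Outside, the raised share was 3.21% against 2.79% on chromosomes 2 to 19, a ratio of 1.15, almost that over all sites. Inside, 11 of 681 sites rose, 1.62% against 0.951%. The SD outside domains was 0.55 log2, against 0.53 over chromosomes 2 to 19 together and rank 3. Summed reads outside domains were kept at 96.5%, rank 2 of 19, and inside at 48.6%.

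Raised sites were mostly sites with few reads. The 515 had medians of 4.17 reads in HAT1+/+ and 10.2 in HAT1-/-, and the 36 that rose by at least 2 log2 had medians of 1.76 and 9.0 reads, a median width of 156 bases and none with a mean of 16 reads or more. On chromosome 1 overall the medians were 14.1 and 13.3 reads and the median width 252 bases. Of the 7098 sites with at least 16 reads, 34 rose by at least 1 log2 (0.479% against 0.355% on chromosomes 2 to 19), and 0 rose by 1.5. Among sites under 8 reads the raised shares were 8.56% and 8.10%. Soft-masked repeats covered a mean of 22.4% of the windows of the 36 sites, against 11.3% for the chromosome and 17.9% for the 238 such sites elsewhere. With so few reads and no values per line, whether these rises exceed the counting error was not tested here. Most lowered sites had few reads as well, with a median level of 10.0 over both genotypes, and none has values per line here. Of the 1019, 282 had at least 16 reads, 3.97% of such sites against 2.83% on the other autosomes, a ratio of 1.40, and at 2 log2 the ratio among them was 2.86. Among sites under 8 reads the lowered shares were 9.56% and 9.72%.

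Sorting sites by read level and by the number of neighbours left part of the excess. If the sites of chromosome 1 in each of 10 level classes crossed with the 5 neighbour classes had the shares of the other autosomes, 894 would have fallen by at least 1 log2, so that the 1019 observed are 1.14 times as many, rank 2 of 19. For raised sites the expected number was 478 and the ratio 1.08, rank 5. At 2 log2 the ratios were 2.17 for lowered and 1.70 for raised sites, both rank 1. With classes of regional GC content in place of neighbours, the lowered ratio was 1.09 at 1 log2, rank 7, and 2.01 at 2 log2, rank 1.

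Properties that the choice of the chromosome did not use, such as site density and sequence, placed it among the sparser and more AT-rich autosomes. They lay within the range of the others except in length, where chromosome 1 is the longest. Chromosome 1 had 83.8 sites per Mb, rank 16 of 19, against 76.3 on chromosome 3 and 121 on chromosome 11. Its sites had a median width of 252 bases (249 to 266 elsewhere) and a median of 14.1 reads in HAT1+/+ (13.4 to 16.3). The HAT1+/+ level enters the difference that the choice used. The sequence was 41.1% GC, rank 17, and it had 17.6 gene starts and 6.18 coding gene starts per Mb, both rank 17. Of its sites 25.4% lay within 3 kb of a gene start, 36.1% in introns and 35.6% between genes. Inside its domains the sites were fewer, 15.9 per Mb against 103 outside, yet their HAT1+/+ level was close to that outside, with medians of 14.3 reads inside and 14.0 outside. In HAT1-/- the medians were 6.19 and 13.6, a gap that follows from picking the domains on the difference.

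TGANTCA went with the lowered sites of the domains. Its counts include matches with A or T at N, which are not the AP-1 core. TGANTCA was found in the central 200 bases of 24.8% of chromosome 1 sites and 22.8% of sites on chromosomes 2 to 19. Inside the domains of chromosome 1 it was in 33.5% of sites, and among the lowered sites inside domains in 42.9%, as in 2 of the 3 lowered windows printed above. Among lowered sites outside domains it was in 20.8%, and among those raised by at least 1 log2 in 19.4%. On the other autosomes 35.2% of sites in domains held it, so the motif was not more common in the domains of chromosome 1. Over the 10 long domains its share ran from 29.0% to 44.4%. The core of the TEAD motif (GGAATG, both strands) was in 16.6% of domain sites and 15.8% of all chromosome 1 sites, and that of RUNX (TGTGGTT, both strands) in 7.34% and 6.97%. The GC box (GGGCGG, both strands), frequent at promoters, was in 2.50% and 7.0%. A match to these letters does not show that a factor binds.

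Genes on chromosome 1 differed by family in how their sites moved. The lists were drawn up with earlier results of these values known, and their counts are set against the median of -0.06 log2 and the 5.12% lowered and 2.78% raised sites of all autosomes. Clade B serpins, a cluster of protease inhibitors, had 19 sites in 8 of 9 genes, of which 12 fell by at least 1 log2 and 0 rose, with a median of -1.05. Serpinb2, which encodes plasminogen activator inhibitor type 2, had 2 sites, and the one at its start went from 4.07 to 2.56 log2. The strongest start site of the cluster, that of Serpinb8, went from 7.65 to 5.91. In Serpinb12, all 3 sites stayed between -0.16 and 0.79. Type II cadherins, calcium-dependent adhesion molecules, had 11 sites in 2 of 3 genes, and 5 fell, with a median of -0.88. In Cdh20 the 10 sites ran from -2.37 to 0.49, and the one at the start went from 3.02 to 3.36.

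Large neuronal genes, which encode adhesion molecules, channels and synaptic proteins, had 451 sites in 18 genes. Of the sites, 65 fell (14.4%) and 9 rose (2.00%), with a median of -0.30. The 5 genes that start in a domain had the lowest medians, and low values there follow from picking domains on the difference. Khdrbs2, which encodes an RNA-binding splicing regulator, had a median of -2.29 over 6 sites, and its start site went from 7.03 to 4.53 log2. Cntnap5b and Cntnap5a, of the contactin-associated family, had medians of -1.91 over 12 sites and -1.43 over 5. Dpp10 had 9 sites, all between -3.58 and -0.97. Brinp3 had 7, all between -1.83 and -0.86. The 13 genes that start outside domains had 412 sites, with 35 lowered and 9 raised, and medians from -0.67 to 0.05. Over all sites of chromosome 1 the shares were 6.22% lowered and 3.14% raised. Of these 13, 7 had a median of -0.3 or lower. The bodies of Nckap5, the potassium channel gene Kcnt2 and the neuregulin receptor gene Erbb4 reach into domains. Their medians were -0.67 over 63 sites, -0.60 over 22 and -0.50 over 21, in that order. In 4 of the 13 the median was above -0.1, among them Tnr, encoding tenascin-R, at -0.01 over 60 sites and the semaphorin receptor gene Nrp2 at -0.02 over 32. Sites were assigned by gene body, so the sites of 1 gene often share a domain.

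Genes of the RGS family, which shorten G protein signalling, had 99 sites, with 14 lowered (14.1%) and 2 raised (2.02%) and a median of -0.24. They lie in several groups along the chromosome. Rgs7 starts outside domains, but its body reaches into short ones, and it held 8 of the 14 lowered sites among its 33 sites. In the domain that holds 5 RGS genes, Rgs13 had a median of -1.77 over 3 sites and the start site of Rgs1 went from 4.75 to 3.93. Rgs2 starts at the edge of the same domain, with most of its body outside. Its start site stood at 8.34 in HAT1+/+ and 8.23 in HAT1-/-, and its 4 sites ran from -0.43 to 0.57.

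Other families lay outside domains. Fibroblast matrix genes had 372 sites in 20 genes, with 12 lowered and 12 raised (3.23% each) and a median of -0.10. Start sites on this list moved both ways. The start site of Fn1, encoding fibronectin, went from 8.42 to 8.40, and that of Col3a1, encoding a fibrillar collagen, from 5.17 to 5.95. Those of Col9a1 and Prelp fell, from 4.26 to 2.19 and from 4.70 to 3.77. Mesenchymal transcription factors and TGF-beta ligands had 338 sites, with 16 lowered (4.73%) and 17 raised (5.03%) and a median of -0.05. The start site of Twist2 went from 7.37 to 7.41 and that of Prrx1 from 5.48 to 5.32. Broadly expressed genes had 85 sites, with 4 lowered and 0 raised and a median of 0.03. Among them Actr3, of the Arp2/3 complex, and Uchl5, a proteasome-bound deubiquitinase, lie beside domains, and their start sites went from 9.66 to 9.56 and from 8.88 to 9.04. Interferon-inducible Ifi200 genes had 59 sites, with 3 lowered and 1 raised and a median of 0.06. Members of this family are near copies of each other, so reads may be shared between them. Interleukin 1 receptor genes had 56 sites, with 1 lowered and 1 raised and a median of 0.12. Gamma crystallins, lens proteins, had 6 sites with a median of 0.42, and the 1 that rose, in Crygb, went from 1.81 to 3.43 log2.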

How the data were processed

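ATAC-Seq of 3 HAT1+/+ and 3 HAT1-/- pMEF samples was used, grouped by the genotype in the labels. The authors ran the ENCODE pipeline, with alignment to mm10 by Bowtie2 and peak calling by MACS2, and compared genotypes with DiffBind 2.14.0. They deposited log2 mean normalized reads per site and genotype. The consensus rule and library scaling are not given in the sources used here. The authors' overall mean, fold change, p-value and FDR columns were not used. Depth per sample is unknown. The lowest values were -0.61 log2 in HAT1+/+ (940 sites) and -0.43 in HAT1-/- (1056).

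The difference of both columns was summarised per chromosome, in 5 Mb bins of at least 10 sites and in domains. The study's joining rule for domains was read as splitting runs at gaps over 1 Mb, and merging runs was tried as an alternative. Reads are 2 raised to the log2 value, and a site's read level is the mean over genotypes. Intervals are 95% log-ratio intervals of counts. Genes came from GENCODE M21, and 134 of 135 listed genes matched. Chromosome lengths of GRCm38.p6 were checked against the sites. Named items are the 3 lowest and 3 highest bins, in each the extreme site, the 3 most lowered and 3 most raised sites with at least 16 reads, domains of at least 1 Mb and listed genes. Of these, 1 raised site and 1 gene list are not reported here. Members, lists and measures were chosen with earlier results of these data known. The functions were tested on simulated data. Versions were Python 3.11.15, matplotlib 3.10.9, scipy 1.17.1, numpy 2.4.6 and pandas 2.3.3.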

Additional observations from a re-analysis of the deposited data

How the results depend on the processing

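All values here compare chromosome 1 with chromosomes 2 to 19. Of 50 alternatives, 30 stayed within the counting interval of a ratio or within 1 SD over the other chromosomes. Chromosome 1 was at rank 1 in 4 of the 6 results, and in 25 of the 35 alternatives to these 4. Raised sites (rank 3) and the median difference (rank 4) moved to rank 1 in 4 of their 15.

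The ratio of lowered sites was 1.24. It was 1.05, 1.63, 2.51 and 3.44 at limits of 0.58, 1.5, 2 and 2.5 log2, 1.40 with sites of at least 16 reads, and 1.33 with 1 read added to both means. It turned to 0.98 without sites in loss domains, to 0.974 without those in merged domains and to 0.983 with sites under 8 reads only. The ratio of raised sites was 1.14. It was 1.30, 1.93 and 3.12 at 1.5, 2 and 2.5 log2, and 1.35 with sites of at least 16 reads. The SD of the difference exceeded the others' by 0.064 log2, and by 0.0143 without sites in domains (rank 3). The SD of bins exceeded their median by 0.276 log2. It did so by 0.376 with at least 16 reads, 0.377 with bin medians, 0.121 with 10 Mb bins (rank 2), 0.22 without the longest domain (rank 2) and 0.0233 without sites in domains (rank 3). Length in domains exceeded the others' by 12.1 percentage points. It did so by 7.15 with at least 16 reads, by 9.57 at a cutoff of -0.4 (rank 2), by 6.31 without the longest domain of chromosome 1 (rank 2) and by 12.1 with merged domains. Leaving out sites in domains takes away the lowest sites by construction, and for the other settings the cause was not tested. The limits of 1.5 and 2.5 log2, the class under 8 reads, the sites without the lowest deposited values, the shifted bins, the merged domains and the removal of the longest domain were chosen after seeing the data.

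No paired analysis was possible because the columns used hold genotype means, with no replicate numbers. Settings without single replicates were not run for that reason.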
